A study of Mus musculus with 32 samples.

Results

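*Clec10a*, *Mgl2*, *Mrc1*, *Cd163*, *Retnla*, *Chil3*, *Folr2*, *Lyve1* and *Stab1* are genes widely used as markers of alternatively activated or tissue-resident macrophages. They are 9 of the 54281 gene identifiers in the count table of a time course of induced *Trex1* loss in bone marrow-derived macrophages (BMDMs), and each was found by its Ensembl identifier. The group was chosen by measured values: *Clec10a* and *Mgl2* had lower counts after 4-hydroxytamoxifen (4-OHT) or *Trex1* loss in these same libraries, so their levels in those comparisons are given here as values without a test.

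BMDMs were grown from mouse bone marrow in medium conditioned by L929 cells, a fibroblast line that supplies the macrophage growth factor CSF1. All groups carried *R26 CreERT2*, a Cre recombinase under control of the ubiquitous *Rosa26* locus that is inactive until 4-OHT binds it. Cells were *Trex1 FL/FL*, in which Cre can delete both *Trex1* alleles, or *Trex1 WT/FL*, which keep one wild type allele and can lose only the floxed one. Cultures of either genotype received 2 µg/ml 4-OHT for 22 h or were left untreated, and were harvested on day 1, 2, 3 or 4 after the end of exposure. This gave 16 groups of 2 libraries, 32 in all. Neither animal, sex, age nor batch is labelled, so p-values measure only the spread between these libraries, which may be technical. Untreated cells were the control for 4-OHT, and 4-OHT-treated *WT/FL* cells the control for loss of both alleles. No group lacked Cre or the floxed allele. In *WT/FL* cells, effects of 4-OHT, Cre activity and loss of the floxed allele therefore cannot be told apart.

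Library totals ranged from 35120505 to 63760884 estimated counts. *Trex1* followed the labels. On day 2 the 4-OHT-treated *FL/FL* libraries held 14 and 9 counts of it and on the other days 0, and 4-OHT-treated *WT/FL* cells kept 44.9% to 57.4% of the untreated level. Macrophage markers, among them *Adgre1*, *Csf1r* and *Lyz2*, summed to between 15284 and 48655 CPM (read counts scaled to library size) in every library. In untreated *WT/FL* cells the sum was 15752 to 17326, 31225 to 33004, 45428 to 47045 and 29252 to 30236 CPM on days 1 to 4. It was thus highest on day 3, as were *Clec10a* and *Mgl2* in untreated cells. On day 3 it was 45691 to 48069 CPM in 4-OHT-treated *WT/FL*, 44506 to 48655 in untreated *FL/FL* and 38921 to 39308 in 4-OHT-treated *FL/FL* cells. *Lyz2* alone was at 11134 to 33994 CPM over all libraries, and the 8 markers did not move together. After 4-OHT 2 were higher and 3 lower in *FL/FL* than in *WT/FL* cells on day 3, with *Fcgr1* at 1.28 and *Csf1r*, *Itgam* and *Lyz2* at -0.36, -0.34 and -0.34 on the log2 scale. Day 4 had 2 of each. Dendritic cell markers, of interest because *Clec10a* and *Mgl2* also mark dendritic cells, summed to between 3.24 and 63.9 CPM. On day 3 that sum was 9.10 and 9.34 CPM in untreated *WT/FL* and 7.57 to 8.07 in 4-OHT-treated *WT/FL* cells. It was 7.32 to 9.11 in untreated and 5.26 to 5.86 in 4-OHT-treated *FL/FL* cells. On day 4 it was 7.60 to 9.19 and 6.72 to 7.16 CPM in *WT/FL*, and 8.39 to 9.12 and 3.24 to 3.90 CPM in *FL/FL* cells, in the same order. Of the 10 dendritic markers 8 were tested. *Itgax*, which encodes CD11c and is also found in macrophages, was lower in *FL/FL* than in *WT/FL* cells after 4-OHT on day 3 (-1.55 on the log2 scale, edgeR adjusted p = 4.26e-05) and day 4 (-2.29, edgeR adjusted p = 1.02e-07). It alone of the 8 passed there, where 12.1% and 21.5% of all tested genes passed on these days. The difference of the 2 genotypes in their response to 4-OHT was -1.41 (edgeR adjusted p = 0.00691) and -2.35 (edgeR adjusted p = 1.08e-05) for *Itgax*. That difference passed for 4.65% and 10.4% of all tested genes on days 3 and 4. *Cd209a* was at 0 in 28 libraries and *Flt3* at or below 0.363 CPM. Lymphocyte markers stayed at or below 0.243 CPM, fibroblast markers at or below 2.27 CPM, and granulocyte and progenitor markers between 4.91 and 34.8 CPM. The part of other cells in the values below was not tested. In bulk RNA, fewer cells that express a gene and less RNA of it per cell cannot be told apart.

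Alternative activation is the response of macrophages to IL-4 and IL-13, whose receptors signal through JAK kinases to the transcription factor STAT6. *Clec10a* and *Mgl2* encode galactose-type C-type lectins that take up glycoproteins, *Mrc1* encodes the mannose receptor CD206, and *Cd163* encodes the scavenger receptor for haptoglobin-bound haemoglobin. *Stab1* encodes stabilin-1, a scavenger receptor that clears modified proteins and sorts cargo inside the cell. *Folr2* encodes folate receptor beta and *Lyve1* a hyaluronan receptor, both known from perivascular resident macrophages. *Retnla* and *Chil3* encode the secreted proteins RELMα and Ym1, which IL-4 raises strongly in mouse macrophages. IL-4 is not among the treatments on the labels.

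*Clec10a* and *Mgl2* are neighbours that arose from one gene, which bears on how far their counts can be kept apart. In GRCm39, *Clec10a* lies on chromosome 11 at 70047023 to 70061660 and *Mgl2* at 70020954 to 70028376, both on the plus strand. Their coding sequences, 924 bases for transcript Clec10a-209 and 1143 bases for Mgl2-205 of GENCODE, could be aligned over 910 bases, of which 823 (90.4%) were identical, with a longest identical run of 183 bases. The first pair below shows 120 aligned coding bases without a difference, which no read inside them can assign. The second pair shows 120 adjoining bases with 8 differences, set in capitals in otherwise lower-case sequence.
Clec10a, coding bases 502 to 621: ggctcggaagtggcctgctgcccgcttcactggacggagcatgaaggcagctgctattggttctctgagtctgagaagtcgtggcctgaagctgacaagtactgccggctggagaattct
Mgl2, coding bases 550 to 669: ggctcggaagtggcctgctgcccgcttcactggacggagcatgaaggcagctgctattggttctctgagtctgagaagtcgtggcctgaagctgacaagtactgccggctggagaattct
Clec10a, coding bases 382 to 501: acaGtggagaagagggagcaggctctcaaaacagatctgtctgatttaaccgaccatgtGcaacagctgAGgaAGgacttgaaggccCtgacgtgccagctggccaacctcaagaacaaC
Mgl2, coding bases 430 to 549: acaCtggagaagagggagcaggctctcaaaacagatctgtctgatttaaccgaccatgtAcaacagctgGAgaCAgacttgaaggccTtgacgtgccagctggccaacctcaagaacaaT

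Of the 31-base words in the annotated transcripts, *Clec10a* shared 459 of 3064 (15%) with other genes and *Mgl2* 508 of 2454 (20.7%). Salmon divides reads from such stretches by the weight of the unshared ones, so the division between the 2 genes is an estimate. *Mgl2* was no fixed share of *Clec10a*. In untreated *WT/FL* libraries on day 3 the *Mgl2* count was 2.07% and 3.51% of the *Clec10a* count, and in 4-OHT-treated *FL/FL* libraries on day 3 it was 0% and 0.277%. Among the other members, *Chil3* shared 36.8% of its words, mostly with *Chil4*, which was at 0 counts in every library. *Folr2* shared 53.5% with Gm10602, an overlapping noncoding gene on the opposite strand, and the sources used here do not state whether counting used strand. *Retnla* shared 5.27%, *Stab1* 4.66%, *Cd163* 0.63%, *Mrc1* 0.127% and *Lyve1* 0%.

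The members differed widely in level. Per kilobase of exon, the median CPM over 32 libraries was 114 for *Mrc1*, 110 for *Stab1*, 21.9 for *Folr2* and 9.42 for *Clec10a*. It was 0.762 for *Chil3*, 0.0994 for *Mgl2*, 0.0819 for *Cd163* and 0.00908 for *Lyve1*. *Retnla* had 1 count in 1 library and 0 in the other 31, where a count of 0 allows up to 3 counts. *Lyve1* had 0 to 12 counts, with at most 3 in 22 libraries. These 2 genes did not pass the filter on low counts, and the other 7 did. *Mgl2* passed through its high groups alone, since 8 of its libraries held at most 3 counts. *Mrc1*, *Stab1*, *Folr2* and *Clec10a* thus carry the depth behind most statements here, with at least 178 counts in each library, whereas *Cd163* had 2 to 53 and *Chil3* 6 to 383.

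**Figure D1:**
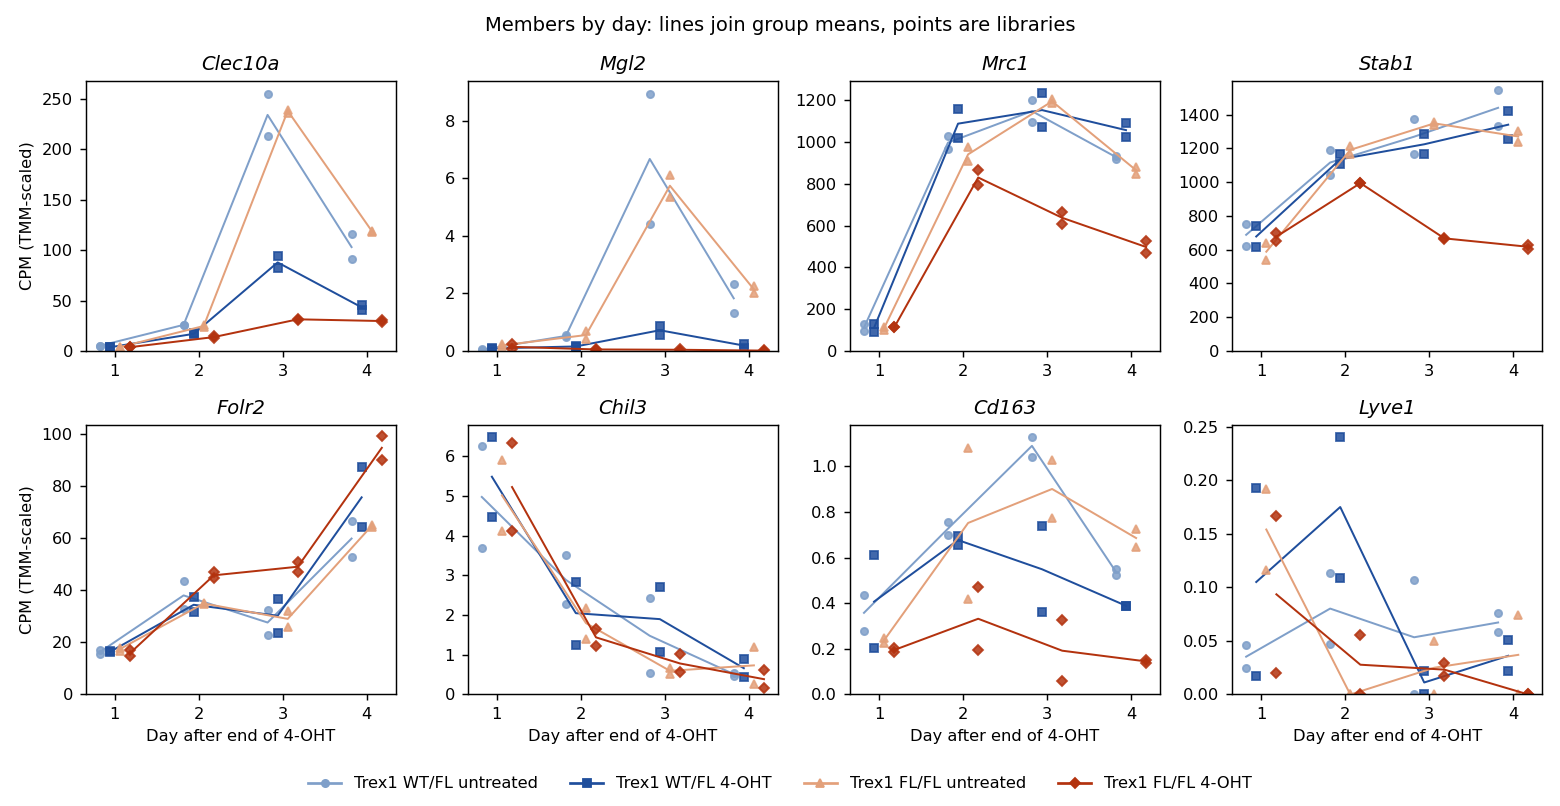
CPM (y axis, linear from 0, scaled with TMM factors) of 8 members against the day after the end of 4-OHT (x axis); points are libraries, lines join group means, and *Retnla* is left out because 31 libraries were at 0. On day 3 *Clec10a* was at 213 to 255 CPM in untreated cells, 81.8 and 93.9 CPM in 4-OHT-treated *WT/FL* cells and 30.9 and 31.8 CPM in 4-OHT-treated *FL/FL* cells.

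The first question was how the members behaved in untreated cells. The choice of genes did not compare these days, but the untreated libraries were its reference. The steps of *Clec10a* are therefore given without a test. *Clec10a* was low on day 1, at 5.28 and 4.99 CPM in *WT/FL* and 3.93 and 3.86 CPM in *FL/FL* libraries. Day 2 gave 26.1 and 25.6 CPM in *WT/FL* and 25.7 and 23.8 CPM in *FL/FL* libraries, and day 3 gave 213 and 255 CPM and 236 and 239 CPM. On day 4 the values were 91.0 and 116 CPM and 118 and 119 CPM. All 4 untreated libraries of a day stood apart from those of every other day, and on days 2 to 4 the genotypes lay close together. Averaged over both genotypes, *Clec10a* rose by 2.50 on the log2 scale from day 1 to day 2 and by a further 3.22 to day 3. It then fell by 1.09 to day 4.

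*Mgl2* had the same shape at a far lower level. Its counts in untreated *WT/FL* libraries were 1 and 3 on day 1, 29 and 21 on day 2, 206 and 369 on day 3, and 70 and 80 on day 4. In untreated *FL/FL* libraries they were 10 and 13, 19 and 33, 214 and 221, and 122 and 70. Day 3 was the highest day in both genotypes, with no overlap with another day. The fitted steps were 2.44, 3.52 and -1.65 on the log2 scale. They are given without a test, since the gene entered the fit through these high groups.

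The large receptors rose earlier. *Mrc1* was at 95.2 to 129 CPM in the 4 untreated libraries of day 1 and at 908 to 1029 CPM on day 2, a rise of 3.13 on the log2 scale (SE 0.103, edgeR adjusted p = 3.58e-15). The next step, to 1098 to 1205 CPM on day 3, was 0.27 (edgeR adjusted p = 0.0192) and did not pass, and *Mrc1* then fell by 0.39 to 850 to 935 CPM (edgeR adjusted p = 0.00394). That last call was lost when any 1 of the 8 libraries other than replicate 1 of untreated *WT/FL* day 3 was left out (-0.42 to -0.35, edgeR adjusted p up to 0.0214). *Stab1* went from 537 to 752 CPM on day 1 to 1044 to 1216 CPM on day 2, a rise of 0.86 (SE 0.0753, edgeR adjusted p = 2.46e-09), and its later steps of 0.18 and 0.05 did not pass. *Folr2* rose on days 2 and 4, by 1.12 (SE 0.148, edgeR adjusted p = 3.33e-06) and 1.14 (SE 0.145, edgeR adjusted p = 7.75e-06), from 15.5 to 18.0 CPM on day 1 to 52.8 to 66.7 CPM on day 4. In between, on day 3, where *Clec10a* and *Mgl2* peaked, its step was -0.37 (edgeR adjusted p = 0.0395) and did not pass.

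*Cd163* rose from day 1 to day 2 by 1.33 (edgeR adjusted p = 0.00776) on 12 to 18 and 19 to 52 counts, a call that was lost when any 1 of the 8 libraries other than replicate 1 of untreated *FL/FL* day 2 was left out (down to 0.91, edgeR adjusted p up to 0.0963). *Chil3* had its highest untreated values on day 1, at 3.70 to 6.26 CPM, against 0.277 to 1.19 CPM on day 4, but none of its 3 daily steps passed (-1.13, -1.27 and -0.67). Outside *Clec10a* and *Mgl2*, the steps that passed were *Mrc1* to days 2 and 4, *Stab1* to day 2, *Folr2* to days 2 and 4 and *Cd163* to day 2. All of them were rises except *Mrc1* to day 4. The background is high here: 49.6%, 48.2% and 22.5% of the 15257 tested genes passed on the steps to days 2, 3 and 4.

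Untreated *FL/FL* and *WT/FL* cells, which test whether the genotypes differed before deletion, gave 0 passing member tests of 28, with 4 at an unadjusted p below 0.05. Those 4 were *Clec10a* on days 1 and 4, and *Mgl2* and *Stab1* on day 1. The choice of genes used these untreated libraries as its reference, and *Mgl2* entered the fit through its high groups. The tests of *Clec10a* and *Mgl2* are therefore no independent check. Over all tested genes 0% passed on days 1, 2 and 3 and 0.0655% on day 4, and DESeq2 gave no passing member either. *Mrc1* differed by -0.04, -0.08, 0.06 and -0.10 on the log2 scale on days 1 to 4 (SE 0.134 to 0.137), and *Stab1* by -0.23, 0.09, 0.09 and -0.18 (SE 0.106). *Clec10a* differed by -0.40 on day 1 (SE 0.126, edgeR adjusted p = 0.536) and by between -0.06 and 0.20 on the later days.

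In *WT/FL* cells 4-OHT was followed by lower *Clec10a* and *Mgl2* on the later days, although one *Trex1* allele remained. *Clec10a* was at 3.76 and 3.57 CPM on day 1, 16.7 and 17.4 on day 2, 93.9 and 81.8 on day 3 and 40.8 and 45.7 on day 4. Each of these pairs lay below both untreated *WT/FL* libraries of its day, at 71.4%, 65.8%, 37.6% and 41.8% of the untreated mean. *Mgl2* had 4 and 7 counts on day 1, 7 and 9 on day 2, 30 and 39 on day 3 and 7 and 12 on day 4. On day 3 the summed counts, scaled to library size, were 10.9% of untreated (95% interval 8.34% to 14.0%, counting error only), and on day 4 10.4% (6.11% to 16.9%). Its peak on day 3 remained visible in these cells.

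For the other members no difference passed in *WT/FL* cells. *Mrc1* was at 1236 and 1071 CPM on day 3 after 4-OHT against 1098 and 1200 untreated, and *Stab1* at 1166 and 1283 against 1164 and 1373, so that both pairs of groups overlapped. On day 4 *Mrc1* was at 1026 and 1090 CPM against 922 and 935, with no overlap and the treated libraries higher. Their differences on days 1 to 4 ran from -0.02 to 0.19 for *Mrc1* (SE 0.134 to 0.137) and from -0.10 to 0.02 for *Stab1* (SE 0.106). *Folr2* differed by -0.15 to 0.34 (SE 0.197 to 0.215). *Cd163* had 19 and 33 counts on day 3 against 53 and 43 untreated, or 0.362 and 0.737 CPM against 1.13 and 1.04, so that these groups did not overlap. The difference was -0.99 (SE 0.565, edgeR adjusted p = 0.702), and the summed counts were 49.1% of untreated after scaling (95% interval 34.3% to 69.5%, counting error only). Of 20 tests of *Mrc1*, *Stab1*, *Folr2*, *Cd163* and *Chil3*, 0 passed by edgeR or by DESeq2, and 0 had an unadjusted p below 0.05 by edgeR. The background was 0.00655%, 0.0918%, 0.341% and 0.216% of genes on days 1 to 4.

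In *FL/FL* cells the same exposure left *Clec10a* and *Mgl2* lower still. *Clec10a* was at 3.71 and 3.81 CPM on day 1, 14.4 and 13.2 on day 2, 31.8 and 30.9 on day 3 and 30.9 and 28.5 on day 4. This was 96.5%, 55.7%, 13.2% and 25.0% of the untreated *FL/FL* mean, a 7.58-fold lower level on day 3. The rise of untreated cells between days 2 and 3 was thus much smaller here, and days 3 and 4 were nearly level. *Mgl2* had 11 and 3 counts on day 1, 1 and 3 on day 2, 0 and 5 on day 3 and 1 and 0 on day 4. The 5 summed counts of day 3 compared with 435 in untreated *FL/FL* cells, a ratio of 0.943% after scaling (95% interval 0.305% to 2.22%), and the 1 count of day 4 with 192, a ratio of 0.667% (0.0168% to 3.76%). A course over days could not be followed at this depth.

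*Mrc1* and *Stab1* were lower after 4-OHT in *FL/FL* cells on days 3 and 4. *Mrc1* was at 609 and 667 CPM on day 3 against 1205 and 1188 untreated, a fall of 0.91 on the log2 scale (SE 0.135, edgeR adjusted p = 5.27e-05). On day 4 it was at 470 and 525 CPM against 883 and 850 (-0.80, SE 0.135, edgeR adjusted p = 0.000132). *Stab1* was at 665 and 670 CPM against 1338 and 1358 on day 3 (-1.01, SE 0.107, edgeR adjusted p = 3.45e-07) and at 606 and 628 against 1301 and 1240 on day 4 (-1.04, SE 0.107, edgeR adjusted p = 1.12e-07). No library of the treated groups reached an untreated one. On days 1 and 2 neither gene passed, with *Mrc1* at 0.05 and -0.18 and *Stab1* at 0.20 and -0.26.

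*Folr2* lay on the other side. In 4-OHT-treated *FL/FL* cells it was at 51.0 and 47.1 CPM on day 3 against 32.0 and 25.9 untreated, and at 99.3 and 90.0 against 64.9 and 64.4 on day 4. Its differences of 0.76 (SE 0.205, edgeR adjusted p = 0.0114) and 0.55 (SE 0.198, edgeR adjusted p = 0.0449) did not pass at 0.01, although the groups did not overlap. *Cd163* had 2 and 19 counts against 31 and 37 on day 3 and 5 and 5 against 35 and 25 on day 4. Its differences, -2.11 (SE 0.617, edgeR adjusted p = 0.0127) and -2.22 (SE 0.672, edgeR adjusted p = 0.0123), did not pass either. *Chil3* differed by 0.44 and -0.86 on these days with SEs of 0.795 and 0.887. Of 20 tests, 4 passed, all downwards, against a background of 0.0131%, 11.1%, 15.7% and 21.4% of genes on days 1 to 4. The 4 near misses, *Folr2* and *Cd163* on days 3 and 4, all passed at a threshold of 0.05.

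**Figure D2:**
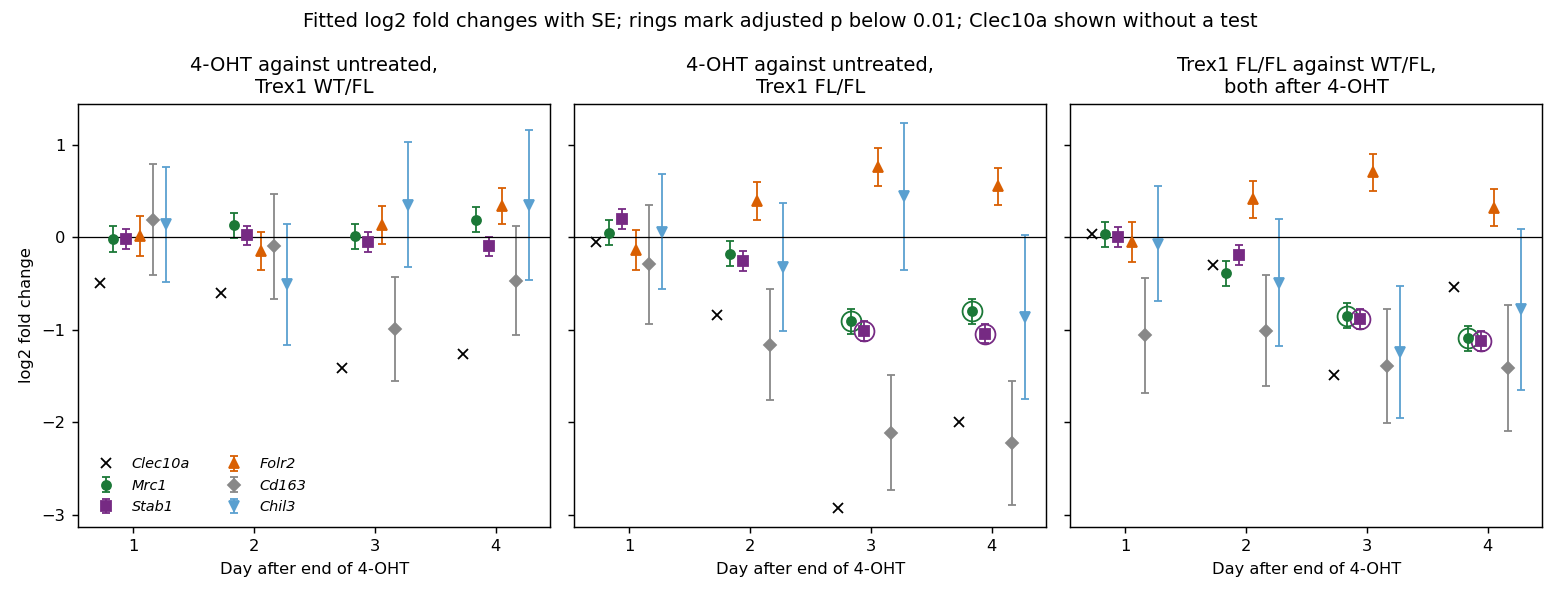
Log2 fold change (y axis) of 6 members on days 1 to 4 (x axis) in 3 comparisons, with bars for the standard error of the fit and rings for an adjusted p below 0.01; *Clec10a* (crosses) has no bar because the choice of genes used these contrasts. Rings appear for *Mrc1* and *Stab1* on days 3 and 4 in the middle and right panels, and none in the left panel.

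Comparing both genotypes after 4-OHT sets loss of both alleles against loss of one. *Clec10a* in *FL/FL* was 103%, 81.0%, 35.7% and 68.6% of the *WT/FL* mean on days 1 to 4, and the libraries of the 2 genotypes did not overlap on days 2, 3 and 4. *Mgl2* held 14 summed counts in *FL/FL* and 11 in *WT/FL* libraries on day 1. The pairs of later days were 4 and 16, 5 and 69, and 1 and 19 counts. The day 3 ratio was 7.61% (95% interval 2.39% to 18.6%).

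*Mrc1* was lower in *FL/FL* by 0.85 on day 3 (SE 0.135, edgeR adjusted p = 0.000148) and by 1.09 on day 4 (SE 0.136, edgeR adjusted p = 4.42e-06), where it was at 470 and 525 CPM against 1026 and 1090. *Stab1* was lower by 0.88 (SE 0.107, edgeR adjusted p = 4.22e-06) and 1.12 (SE 0.107, edgeR adjusted p = 4.71e-08), with 606 and 628 CPM against 1258 and 1422 on day 4. The *FL/FL* means were by then 47.0% and 46.0% of the *WT/FL* means. *Folr2* was 0.70 higher on day 3 (SE 0.203, edgeR adjusted p = 0.0212) and 0.32 higher on day 4 (edgeR adjusted p = 0.248), and did not pass. *Cd163* and *Chil3* differed by -1.39 and -1.24 on day 3 with SEs of 0.619 and 0.710, which did not pass. Of 20 tests 4 passed, against a background of 0.0197%, 8.17%, 12.1% and 21.5% of genes on days 1 to 4.

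The difference between the genotypes in their response to 4-OHT was tested as an interaction. For *Mrc1* it was -0.91 on day 3 (SE 0.190, edgeR adjusted p = 0.00459) and -0.99 on day 4 (SE 0.190, edgeR adjusted p = 0.00105). For *Stab1* it was -0.96 (SE 0.150, edgeR adjusted p = 0.000246) and -0.94 (SE 0.150, edgeR adjusted p = 0.000101). The *Mrc1* call of day 3 was lost when any 1 of the 8 libraries other than replicate 2 of 4-OHT-treated *WT/FL* day 3 was left out (-1.01 to -0.80 over all 8, edgeR adjusted p up to 0.0345), and the other 3 calls were kept without each library. *Folr2* gave 0.63 on day 3 (SE 0.290, edgeR adjusted p = 0.228), so a different response was not shown for it. Of 20 tests 4 passed, with 0.00655%, 4.04%, 4.65% and 10.4% of all genes passing on days 1 to 4. *Clec10a* gave -1.51 on day 3 and -0.74 on day 4, as a description. Relative to their own untreated cells, 4-OHT-treated *WT/FL* cells held 100% and 114% of *Mrc1* and 96.5% and 93.1% of *Stab1* on days 3 and 4. In *FL/FL* cells the shares were 53.3% and 57.4% for *Mrc1* and 49.5% and 48.5% for *Stab1*, whereas *Clec10a* was low in both genotypes.

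Over the whole course in 4-OHT-treated cells, *Stab1* rose from day 1 to day 4 by 0.98 in *WT/FL* (SE 0.107, edgeR adjusted p = 5.46e-08), and in *FL/FL* it gave -0.13 (SE 0.106, edgeR adjusted p = 0.285). *Mrc1* rose by 3.26 in *WT/FL* and 2.14 in *FL/FL*, and *Folr2* by 2.21 and 2.58 (edgeR adjusted p at most 3.36e-08). *Chil3* gave -3.07 (edgeR adjusted p = 0.00105) and -3.77 (edgeR adjusted p = 0.000413), from 4.11 to 6.49 CPM on day 1 to 0.166 to 0.886 CPM on day 4. Both *Chil3* calls were lost when replicate 1 of the day 4 group was left out (-2.63, edgeR adjusted p = 0.0235 and -3.11, edgeR adjusted p = 0.0122). *Cd163* gave -0.07 and -0.42 and did not pass. Of 10 tests 7 passed, against 54.4% of genes in *WT/FL* and 56% in *FL/FL* cells.

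The order of the 16 group means shows how the members differ. For *Clec10a* the 2 untreated day 3 groups came first and overlapped, followed by untreated *FL/FL* and *WT/FL* day 4, and 4-OHT-treated *WT/FL* day 3 overlapped with the last of these. For *Mrc1* the 8 highest groups formed an unbroken series of overlapping neighbours from 1196 to 929 CPM, and 4-OHT-treated *FL/FL* days 3 and 4 stood apart below them at 638 and 498 CPM. For *Stab1* those 2 groups, at 667 and 617 CPM, lay among the day 1 groups of all arms, at 588 to 688 CPM. For *Folr2* 4-OHT-treated *FL/FL* day 4 was the highest group, at 94.6 CPM, and stood apart from the next.

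Across the 16 group means of log2 CPM, which share libraries of the same days, *Clec10a* correlated with *Mgl2* at r = 0.77, with *Mrc1* at 0.84, with *Stab1* at 0.77 and with *Folr2* at 0.54. *Mgl2* correlated with *Folr2* at 0.02, and *Chil3* with *Folr2* at -0.88. Among 11592 genes with a mean of at least 1 CPM, the patterns most like *Clec10a* were those of *Mcrip1* and *Fcrl2* (r = 0.981 for both) and *Insr* (0.980), which encodes the insulin receptor. Nearest to *Mgl2* were *Tex2* (0.951), *Tm6sf1* (0.916) and *Ntaq1* (0.905). *Mrc1* was most like *Sec14l1*, *Man1a* and *Slc46a3* (0.986 each), and *Stab1* like *Ttll3* (0.948), *Sh3gl1* (0.946) and *Castor2* (0.936). *Folr2* was nearest to *Nck2* (0.974) and *Sfxn5*, and *Chil3* to *Impa2* (0.972), 2500002B13Rik and *Spint1*. These correlations are descriptions of 16 points with no test.

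The surroundings of *Clec10a* and *Mgl2* were examined because the 2 genes moved together. *Asgr2*, which encodes a subunit of the asialoglycoprotein receptor and is a relative of both, lies just before *Mgl2* on the same strand, at 69983461 to 69997538. It was at 0 counts in all libraries of day 1, and at 6 and 6 (*WT/FL*) and 5 and 12 counts (*FL/FL*) on untreated day 2. Untreated day 3 gave 58 and 41 and 54 and 58 counts, a rise of 3.06 over day 2. This step is given without a test, since *Asgr2* entered the fit through its higher groups of days 3 and 4. After 4-OHT it had 32 and 15 counts in *WT/FL* and 16 and 5 in *FL/FL* cells on day 3. These differences from untreated cells, -1.23 and -2.49, are given without a test for the same reason. Further away, *Dlg4* rose by 0.45 on untreated day 3 (edgeR adjusted p = 1.87e-06) and *Rnasek* by 0.16 (edgeR adjusted p = 0.00413), while *Slc16a13* gave 0.00 and *Bacc1* 0.07 and did not pass. *Asgr1*, the partner subunit of *Asgr2*, was below the filter.

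**Figure D3:**
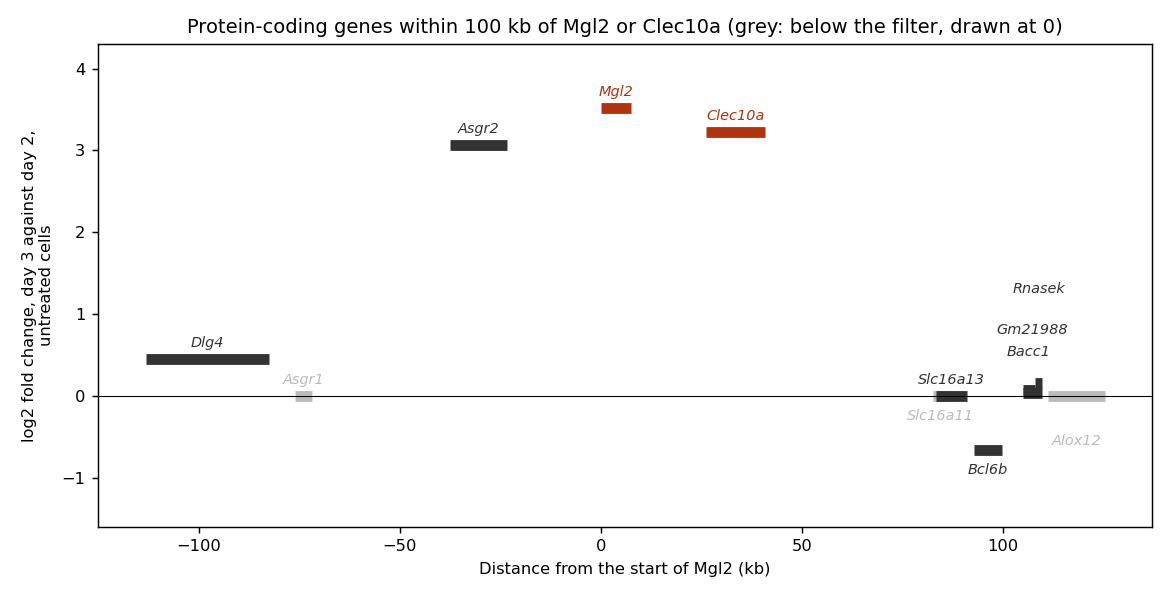
Log2 fold change from day 2 to day 3 in untreated cells (y axis) of protein-coding genes within 100 kb of *Mgl2* or *Clec10a*, drawn to scale along the chromosome (x axis, kilobases from the start of *Mgl2*). *Asgr2*, *Mgl2* and *Clec10a* gave 3.06, 3.52 and 3.22, and the other genes that passed the filter lay between -0.66 and 0.45.

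Genes of the IL-4 pathway were taken from lists that do not contain the members. The receptor and signalling list held *Il4ra*, *Il13ra1*, *Il2rg*, *Jak1*, *Jak3*, *Stat6*, *Socs1* and *Cish*, and all 8 were tested. In untreated cells 6 rose and 0 fell from day 1 to 2, with the same counts from day 2 to 3, and 0 rose and 5 fell to day 4 (medians 0.72, 0.62 and -0.37, against 0.01, 0.04 and 0.00 over all genes, of which 49.6%, 48.2% and 22.5% passed in either direction). *Il4ra*, the receptor chain shared by IL-4 and IL-13, rose by 0.88 and 0.79 and then fell by 0.35, so that it too was highest on day 3. *Cish*, a target and inhibitor of STAT signalling, rose by 1.37 and 1.21. Between 4-OHT-treated genotypes, 1 of 8 was higher in *FL/FL* and 0 lower on day 3 (median -0.17). Day 4 had 2 of them higher and 2 lower (median 0.11). Of all genes 12.1% passed in this comparison on day 3 and 21.5% on day 4, the background also for the lists that follow. *Socs1*, an interferon- and cytokine-induced inhibitor of JAK kinases, was higher by 1.80 on day 4 (edgeR adjusted p = 0.00016), and *Cish* lower by 0.80 (edgeR adjusted p = 0.00688). In *WT/FL* cells 0 of the 8 passed for 4-OHT on any day by edgeR, with 2 of 32 tests at an unadjusted p below 0.05. Few genes passed there at all, between 0.00655% and 0.341% of the 15257 on a single day, and 378 to 1281 had an unadjusted p below 0.05.

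Of 8 regulators of the IL-4 response, 2 were higher and 4 lower in *FL/FL* than in *WT/FL* cells on day 3 after 4-OHT (median -0.47). By day 4 there were 2 higher and 3 lower ones (median -0.52). The medians over all genes were -0.01 and -0.04. *Egr2*, a transcription factor that IL-4 induces, was at 1.46 and 1.93 CPM against 4.76 and 5.37 on day 3 (-1.56, edgeR adjusted p = 6e-06). *Myc* was at 2.14 and 2.22 CPM against 3.98 and 5.37 (-1.11, edgeR adjusted p = 9.63e-06). *Kdm6b*, a histone H3K27 demethylase, was lower by 0.95 (edgeR adjusted p = 5.58e-05) and *Irf4* by 0.88 (edgeR adjusted p = 0.00482). The interaction with 4-OHT passed for *Egr2*, *Kdm6b* and *Myc* on both days, with -1.24 for *Egr2* and -0.97 for *Myc* on day 3 and -1.42, -0.93 and -1.21 in this order on day 4. Of all genes 4.65% and 10.4% passed the interaction on these days. In the opposite direction, *Pparg* was higher in *FL/FL* than in *WT/FL* cells after 4-OHT on day 2 (0.69, edgeR adjusted p = 0.000123). On that day 1 regulator was higher and 0 lower, against 8.17% of all genes. *Klf4* was higher by 0.61 on day 4 (edgeR adjusted p = 0.00222). Against untreated *FL/FL* cells, *Klf4* was higher by 1.06 on day 3 (edgeR adjusted p = 7.13e-06). *Pparg* was higher by 0.93 on day 4 (edgeR adjusted p = 4.52e-07). There 2 of the 8 were higher and 4 lower on day 3, and 2 and 3 on day 4, against 15.7% and 21.4% of all genes. In *WT/FL* cells 0 of the 8 passed for 4-OHT by edgeR, with 4 of 32 tests at an unadjusted p below 0.05. The background there was 0.00655% to 0.341% of all genes passing on a single day. In untreated cells *Irf4* rose by 1.18 and 1.16 on the steps to days 2 and 3 and fell by 0.94 to day 4, the course that *Clec10a* had.

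The listed IL-4 targets ranged from *Chil4*, at 0 counts in every library, to *Cd36*, at 135 to 816 CPM, and *Tgm2*, at 41.2 to 172 CPM. *Arg1*, which encodes arginase 1, was at 0.98 to 2.15 CPM on day 1 and at or below 0.219 CPM on every later day. Of 15 listed targets 13 were tested. In *FL/FL* against *WT/FL* cells after 4-OHT 0 were higher and 1 lower on day 3 (median -0.74), whereas day 4 had 2 of each (median -0.84). *Mmp12*, a macrophage elastase, was lower by 0.94 on both days (edgeR adjusted p = 0.00584 and 0.0028), *Cd36*, which encodes a fatty acid and lipoprotein receptor, by 0.92 on day 4 (edgeR adjusted p = 2.76e-08), and *Clec7a* and *Il1rn* were higher by 0.57 and 0.56. In *WT/FL* cells after 4-OHT, *Cd36* was lower than in untreated cells by 0.75 on day 3 (edgeR adjusted p = 3.26e-05) and 0.64 on day 4. *Tgm2*, transglutaminase 2, was lower by 1.15 on day 3 (edgeR adjusted p = 0.000588). *Il1rn*, the IL-1 receptor antagonist, was higher by 0.54 and 0.70. Of the 13 tested targets 1 was higher and 2 were lower in this comparison on day 3 (median -0.25). On day 4 1 was higher and 1 lower (median 0.12). Of all genes 0.341% and 0.216% passed on these days.

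Genes of resident macrophages are the company in which *Mrc1*, *Stab1*, *Folr2* and *Lyve1* are usually found, and 17 of 19 listed were tested. From day 1 to 2 in untreated cells 12 rose and 1 fell (median 1.34), and 14 rose and 1 fell from day 2 to 3 (median 1.09), steps on which 49.6% and 48.2% of all genes passed. After 4-OHT 8 were lower and 1 higher in *FL/FL* than in *WT/FL* cells on day 3, and likewise 8 and 1 on day 4 (median -0.44 on both days), against 12.1% and 21.5% of all genes passing in either direction. The lower genes include *Cd209f* on both days (-6.46, SE 1.32 and -2.86, SE 0.575) and *Cd209g* on day 4 (-3.73, SE 0.864). On day 3 *Cd209f* was at 0 CPM in both *FL/FL* libraries and entered the fit through other groups, so its place in the count is no independent support. *F13a1*, a coagulation factor XIII subunit, was at 21.0 and 25.9 CPM against 110 and 140 on day 3 (-2.41, edgeR adjusted p = 4.31e-06). *Igf1* was lower by 0.83 (edgeR adjusted p = 5.25e-09), and *Pf4*, platelet factor 4, by 1.75 on day 4 (edgeR adjusted p = 7.58e-14). The exception was *Cd5l*, a secreted scavenger receptor protein of macrophages, which was at 1110 and 1269 CPM against 499 and 675 on day 3 (1.02, edgeR adjusted p = 0.00948) and higher by 1.19 on day 4 (edgeR adjusted p = 0.00176). The interaction passed downwards for 3 genes of this list on day 3 and 6 on day 4, *Cd209f* among the 6, and upwards for 0. Of all genes 4.65% and 10.4% passed the interaction in either direction on these days. In *WT/FL* cells 1 of 17 passed for 4-OHT over the 4 days, *Hmox1* on day 4 (-0.47, edgeR adjusted p = 0.00176). Between 0.00655% and 0.341% of all genes passed there on a single day.

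Relatives of the members by family gave a mixed picture. Of 16 listed, 8 were tested, and after 4-OHT 2 were higher and 0 lower in *FL/FL* than in *WT/FL* cells on day 3. For day 4 the numbers were 2 and 1, and 12.1% and 21.5% of all genes passed. The 2 higher genes were *Pla2r1* and *Cd5l* on both days, and *Cd5l* is also on the resident list above. *Stab2*, the second stabilin, was at 1.39 and 1.85 CPM against 4.10 and 7.35 on day 4 (-1.81, edgeR adjusted p = 0.00182), the direction of *Stab1*. *Pla2r1*, a phospholipase A2 receptor of the mannose receptor family, was higher by 2.13 on day 3 (edgeR adjusted p = 0.00451), opposite to *Mrc1*.

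**Figure D4:**
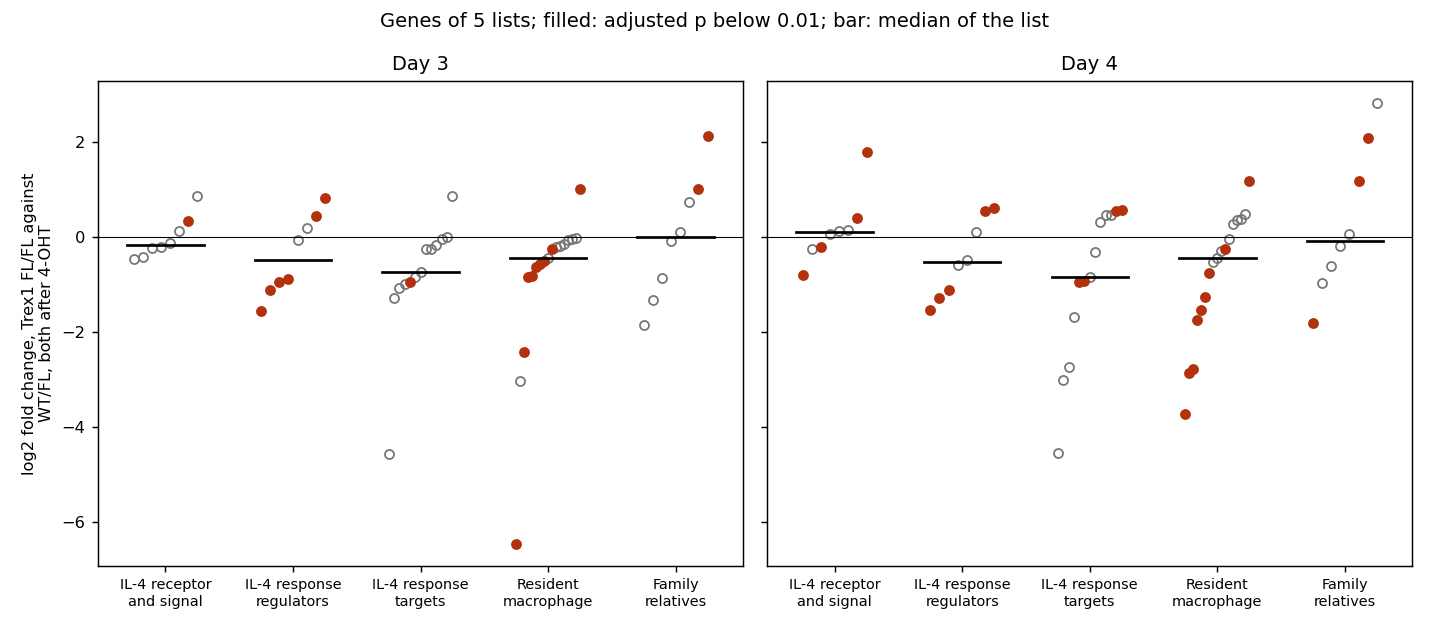
Log2 fold change between 4-OHT-treated *FL/FL* and *WT/FL* cells (y axis) for the tested genes of 5 lists (x axis) on days 3 and 4; each point is a gene, filled where the adjusted p was below 0.01, and bars are list medians. The regulator, target and resident lists have medians of -0.47, -0.74 and -0.44 on day 3, and the point at -6.46 is *Cd209f*, which was at 0 CPM in both *FL/FL* libraries.

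Promoters were read from RefSeq for GRCm38.p6, which gave 8 promoters of 7 members and has no entry used here for *Clec10a* or *Lyve1*. The 250 bases before each start were searched on both strands for TTCNNNNGAA, the spacing that STAT6 favours, TTCNNNGAA, the spacing of other STATs, GGTCANNNTGACC for the estrogen receptor, whose ligand-binding part CreERT2 carries, and TTTCNNTTTC, an interferon response pattern. The STAT6 pattern occurred in *Retnla* alone and the other STAT pattern in *Chil3* alone, against 5.85% and 7.02% of all 32851 promoters. The estrogen receptor and interferon patterns were in 0 of 8, against 0.0639% and 2.98%. Shown are *Retnla*, with its match in capitals, and *Mrc1* and *Stab1*, which fell together in 4-OHT-treated *FL/FL* cells and hold none of the patterns in this window.
Retnla, chr16:48842359-48842608, plus strand: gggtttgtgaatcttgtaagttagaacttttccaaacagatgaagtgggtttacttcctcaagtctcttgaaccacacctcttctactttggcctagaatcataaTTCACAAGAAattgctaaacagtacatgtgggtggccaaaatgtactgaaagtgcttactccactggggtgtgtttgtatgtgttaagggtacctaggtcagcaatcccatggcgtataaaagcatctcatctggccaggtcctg
Mrc1, chr2:14229164-14229413, plus strand: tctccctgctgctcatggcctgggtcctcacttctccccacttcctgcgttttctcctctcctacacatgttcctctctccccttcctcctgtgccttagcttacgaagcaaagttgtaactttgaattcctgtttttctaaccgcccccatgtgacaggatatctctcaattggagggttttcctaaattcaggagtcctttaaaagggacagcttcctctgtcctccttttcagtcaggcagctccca
Stab1, chr14:31168642-31168891, minus strand: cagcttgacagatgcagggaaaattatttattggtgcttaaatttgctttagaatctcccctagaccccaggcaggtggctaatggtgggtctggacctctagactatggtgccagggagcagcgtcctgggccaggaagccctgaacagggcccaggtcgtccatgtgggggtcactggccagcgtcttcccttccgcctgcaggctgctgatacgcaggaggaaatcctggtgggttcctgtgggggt
A match of letters is a description of the window and shows no binding, and *Retnla*, the gene with the STAT6 pattern, was at 0 counts in 31 of 32 libraries.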

How the data were processed

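Reads were demultiplexed (JE), passed through FastQC and quantified per transcript by Salmon on GRCm39, after which tximport gave gene sums. The authors deposited these estimated counts per gene as whole numbers without normalization. The annotation release and whether counting used strand are not given in the sources used here. Symbols and coordinates were taken from GENCODE vM39, which matched 51048 of 54281 identifiers, and the unmatched ones held 0.32% of counts and stayed in the table. Counts were tested in R 4.3.3 with edgeR 4.0.16 (quasi-likelihood F test, TMM factors, robust estimation, a mean for each of 16 groups, 16 residual degrees of freedom, filter at a minimum count of 10). Of the identifiers, 15257 were tested and the biological coefficient of variation was 0.0912. A test passed at a Benjamini-Hochberg adjusted p below 0.01 over all tested genes. The study also asked for an absolute log2 fold change above 1.5, which is an alternative here. Standard errors are the fold change divided by the square root of F.

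The text names all members, *Trex1*, up to 4 passing genes of each list with the largest changes, and the 3 nearest patterns of each member, of which 1 is not reported here. The genes around *Clec10a* and *Mgl2* were added after their values were seen. Members and lists were chosen with earlier results of these data known. CPM are scaled with TMM factors. Intervals for *Mgl2* are exact binomial intervals at 95% of the ratio of summed counts and cover counting error only. The edgeR fit was tested on simulated data. Alternatives were RLE and upper-quartile factors, no filter, a minimum count of 50, thresholds, non-robust estimation, DESeq2 1.42.0, fits of the compared groups, leaving out each library and, chosen after seeing the data, a replicate block from the title numbers.

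Libraries of a group differed by more than sampling noise (chi-square per degree of freedom 9.02 to 47.4), so none was counted as a duplicate. Replicate numbers in the text follow accession order and name libraries only. Promoter sequences are credited to RefSeq (GRCm38.p6) and coding sequences to GENCODE.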

Additional observations from a re-analysis of the deposited data

Results flagged for a closer look

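For *Mrc1* and *Stab1* the response to 4-OHT differed between BMDMs of the 2 *Trex1* genotypes, *FL/FL* and *WT/FL*, by the test of the difference itself, an interaction in the edgeR fit. The difference was -0.91 (day 3) and -0.99 (day 4) on the log2 scale for *Mrc1*, and -0.96 and -0.94 for *Stab1*. In each case both *FL/FL* libraries after 4-OHT lay below all untreated *FL/FL* libraries of that day, and the *WT/FL* libraries of day 3 overlapped with their untreated ones. On day 4 the *WT/FL* libraries after 4-OHT overlapped with the untreated ones for *Stab1* but lay above them for *Mrc1*, at 1026 and 1090 against 922 and 935 CPM. The *Mrc1* call of day 3 was lost when any of 7 of its 8 libraries was left out. With 2 libraries in a group, single outlying libraries could not be looked for.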

How the results depend on the processing

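RLE and upper-quartile factors, a minimum count of 50 and non-robust estimation left each count of passing member tests within 1.5 times its value. Between genotypes after 4-OHT the 4 passing tests became 9 with no filter and 0 when a log2 fold change above 1.5 was also asked for. For 4-OHT in *FL/FL* cells 4 became 10 with no filter, 8 at an adjusted p below 0.05, 0 with the fold threshold, 8 with DESeq2 and 7 with only the groups compared in the fit. With the fold threshold the interaction count of 4 became 0. Of the passing untreated day steps outside *Clec10a* and *Mgl2*, only that of *Mrc1* to day 2 (3.13) stayed, since the other changes are smaller than that. All counts of day steps in this section include *Clec10a* and *Mgl2*, whose steps are given without a test. Those counts therefore do not show how stable the steps of the other members are. The cause of the other shifts was not tested. Leaving out each library in turn gave 4 to 5 passing tests between genotypes after 4-OHT, 4 to 6 for 4-OHT in *FL/FL* cells, 3 to 4 for the interaction, 11 to 13 for the day steps, 6 to 7 for day 4 against day 1, and 0 for 4-OHT in *WT/FL* cells and for untreated genotypes. Of the single values, 752 kept their direction and their side of the threshold, 24 kept their direction only and 3 changed sign, all on day 1: between genotypes after 4-OHT, *Clec10a* gave 0 to 0.08 and *Mgl2* -0.56 to 1.32, and for 4-OHT in *FL/FL* cells *Mgl2* gave -1.65 to 0.22, when single libraries were left out. A lone library left in a group is taken to vary like the others. The labels give no replicate numbers, but the title numbers of each genotype form 2 runs with 1 library of every group, and a replicate block on these runs was added after seeing the data. Between groups of a genotype, deviations of libraries of the same run were correlated over 15257 genes. The correlations were 0.0242 to 0.118 in *WT/FL* cells (median 0.071) and -0.00775 to 0.144 in *FL/FL* cells (median 0.063). Of the 28 pairs of groups in each genotype, 0 lay below 0 in *WT/FL* and 1 in *FL/FL* cells. Whether libraries of a run share a culture or an animal was not tested, and the main fit has no block. With the block, passing tests were 9 for 4-OHT in *FL/FL* cells in place of 4, 5 for the interaction, 16 day steps, 7 for day 4 against day 1 and 0 for 4-OHT in *WT/FL* cells. Contrasts between genotypes have no shared run and were not fitted this way. Depth limits *Mgl2*, *Cd163*, *Lyve1* and *Retnla*, whose libraries often held few counts.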
